A study of Mus musculus with 6 samples.

Results

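Transforming growth factor beta (TGF-beta) signalling was followed through 10 genes of the pathway in mouse CD4+ T cells exposed to NETs or to vehicle. The 10 genes were taken by their symbols from the deposited count table of 54532 genes: the ligands Tgfb1 and Tgfb3, the receptors Tgfbr1 and Tgfbr2, the signal transducers Smad2, Smad3 and Smad4, the inhibitory Smad7, and the Smad corepressors Ski and Skil. All 10 were found and all 10 passed the filter on low counts. The cells were splenic naive CD4+ T cells of the C57BL/6 strain, and the labels name no genetic change. NETs (neutrophil extracellular traps) consist of chromatin decorated with granule proteins and are cast out by activated neutrophils. Cells received NETs in 3 libraries (NETs) and vehicle in 3 libraries (Vehicle), and all spent 72 h in culture on CD3/CD28 beads, with IL-2 added and interferon-gamma and IL-4 blocked by antibodies. The labels name no added TGF-beta, and they give neither the dose nor the source of the NETs. No source says whether replicates were separate animals or cultures, and the p-values measure only the spread between these libraries, which may be technical.

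TGF-beta ligands are made as latent precursors that must be cleaved and released before they can bind. An active ligand brings together the type II receptor TGFBR2 and the type I receptor TGFBR1, which phosphorylates SMAD2 and SMAD3. These join SMAD4 and enter the nucleus, where they act on target genes, among them Smad7 and Skil, whose products restrain the same pathway. In CD4+ T cells TGF-beta is known for inducing Foxp3, for holding back effector differentiation and, in T cells activated with other cytokines, for supporting further helper fates.

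The promoter sequences of 3 members are shown here because they belong to the member with the smallest p among those higher with NETs (Tgfb1), the member with the smallest p among those lower (Smad3) and the member with the most reads (Tgfbr2). Each is the 250 bases before the RefSeq gene start on build GRCm38.p6, 5′ to 3′ on the gene's strand. Capitals mark the GC box GGGCGG and the CAGA element CAGAC, each on either strand.
Tgfb1, plus strand, chr7:25686752-25687001: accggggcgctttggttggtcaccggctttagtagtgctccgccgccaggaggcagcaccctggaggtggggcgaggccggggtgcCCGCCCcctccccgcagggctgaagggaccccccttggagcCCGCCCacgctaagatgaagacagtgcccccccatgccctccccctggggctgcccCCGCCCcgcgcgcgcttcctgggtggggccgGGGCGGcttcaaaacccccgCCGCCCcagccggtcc
Smad3, minus strand, chr9:63757995-63758244: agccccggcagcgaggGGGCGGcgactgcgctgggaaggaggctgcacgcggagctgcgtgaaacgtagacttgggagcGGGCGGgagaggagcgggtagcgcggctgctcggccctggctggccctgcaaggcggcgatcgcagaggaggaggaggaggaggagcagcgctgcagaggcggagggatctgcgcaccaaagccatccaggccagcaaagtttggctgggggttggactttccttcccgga
Tgfbr2, minus strand, chr9:116175364-116175613: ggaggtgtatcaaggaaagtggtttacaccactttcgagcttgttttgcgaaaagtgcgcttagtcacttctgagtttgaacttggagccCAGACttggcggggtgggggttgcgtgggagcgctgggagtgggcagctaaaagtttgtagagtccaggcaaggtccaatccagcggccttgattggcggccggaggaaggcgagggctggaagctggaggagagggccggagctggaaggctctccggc

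The Tgfb1 window held 5 GC boxes and no CAGAC, the Smad3 window held 2 GC boxes and no CAGAC, and the Tgfbr2 window held 1 CAGAC and no GC box. Over all 32851 promoter windows of this length in the RefSeq table, 32.7% held GGGCGG and 42.2% held CAGAC. Neither the Smad palindrome GTCTAGAC, present in 0.167% of windows, nor TATAAA, present in 12.4%, occurred in these 3 windows. GC content was 75.2% for Tgfb1, 69.2% for Smad3 and 58.4% for Tgfbr2, against a median of 52.4% over all windows. Of the 10 members, 5 had an entry in the table (these 3, Tgfbr1 and Ski). The Ski window had the highest GC content of them, 87.6%, with 5 GC boxes. These matches describe the letters in the windows and do not show binding.

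The members lay on 6 chromosomes, in coordinates of the deposited table that equal GRCm38 for 9 of the 10. Tgfb1 (ENSMUSG00000002603) was at chr7:25687002-25705077, Tgfb3 (ENSMUSG00000021253) at chr12:86056745-86079041 and Skil (ENSMUSG00000027660) at chr3:31095058-31122577. Tgfbr1 (ENSMUSG00000007613) and Ski (ENSMUSG00000029050) shared chromosome 4, at chr4:47353222-47414931 and chr4:155154075-155222592. Tgfbr2 (ENSMUSG00000032440) and Smad3 (ENSMUSG00000032402) shared chromosome 9, at chr9:116084293-116175360 and chr9:63646767-63757994. Smad4 (ENSMUSG00000024515), Smad7 (ENSMUSG00000025880) and Smad2 (ENSMUSG00000024563) lay close together on chromosome 18, with 1.66 Mb between Smad4 and Smad7 and 0.846 Mb between Smad7 and Smad2. Smad2 is the member whose end differs between the deposited table (chr18:76241580-76305731) and GENCODE M21. All 10 are protein-coding. The span of Tgfb3 overlapped that of Ttll5 on the other strand, which had 2865 reads over the 6 libraries against 130 for Tgfb3, but the annotated exons of the pair shared 0 bases. No other member overlapped a gene of the deposited table.

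Total counts per library ran from 17148910 to 18394828 with NETs and from 15657622 to 18655997 with vehicle. The CD4+ T cell markers (Cd4, Cd3d, Cd3e, Cd3g, Cd5, Lck, Cd28) summed to between 3321 and 3558 CPM (a gene's reads relative to all counts of its library) with NETs and between 3271 and 3769 CPM with vehicle. Platelets are a rich source of TGF-beta1 protein. Their markers summed to between 3.64 and 5.47 CPM with NETs and between 4.22 and 5.90 CPM with vehicle, mostly from Itga2b. Pf4 had 17 reads with NETs and 11 with vehicle, Ppbp 4 and 5, Gp9 0 and 2, and Gp1bb 0 in both. Macrophage and dendritic cell markers summed to between 38.4 and 49.5 CPM with NETs and between 28.0 and 39.1 CPM with vehicle, mostly from Lyz2. C1qa had 5 reads with NETs and 4 with vehicle, and Itgax went the other way from Lyz2, with 16 and 47. Neutrophil markers summed to between 3.90 and 5.06 CPM with NETs and between 1.55 and 2.75 CPM with vehicle. Among them, S100a9 had 60 reads with NETs and 0 with vehicle, S100a8 28 and 1, Ngp 17 and 0, and Elane 8 and 2. On the same count Retnlg had 2 and 0, Camp 1 and 0, Mpo 107 and 81, and Ltf 19 and 23. B cell markers summed to between 13.2 and 19.2 CPM with NETs and between 17.6 and 18.3 CPM with vehicle, and CD8 T cell markers to between 13.0 and 19.5 CPM against 18.4 and 20.8 CPM. NK cell markers stayed at or under 0.272 CPM in every library. Mitochondrial genes took 1.20% to 1.46% of counts with NETs and 1.60% to 1.71% with vehicle. The part of these cells and of this share in the results below was not tested, and fewer cells of a type cannot be told apart from less RNA per cell. On the first principal component (32.3% of the variance) vehicle replicate 3 (−11.7) fell next to NETs replicate 2 (−12.0). Vehicle replicates 1 and 2 were at 16.8 and 42.9, and NETs replicates 1 and 3 were spread as well, at −36.2 and 0.171. Each result is also given without vehicle replicate 3 where it changes. That library was picked from these values, and dropping the vehicle library nearest to NETs tends to widen the group difference. Calls made without it are therefore no independent support.

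Abundance per length put Tgfb1 first and Tgfb3 last among the members on both scales available. In the authors' deposited FPKM, Tgfb1 averaged 172 ± 20.2 over all libraries (SD, n = 6), above the other members in all 6 libraries and at percentile 95.2 of the genes tested. Smad4 followed at 71.9 ± 3.12 FPKM and Smad3 at 69.7 ± 9.36 FPKM, and the order of these neighbours differed between libraries, with Smad4 higher in 4 of 6. Tgfbr2 stood at 51.0 ± 5.98, Smad7 at 48.8 ± 7.35, Ski at 41.0 ± 5.16 and Smad2 at 35.3 ± 3.22 FPKM, and each neighbour's range overlapped the next. Skil at 27.4 ± 2.24 and Tgfbr1 at 26.7 ± 2.14 FPKM were the lowest members apart from Tgfb3, which had 0.369 ± 0.148 FPKM.

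**Figure D1:**
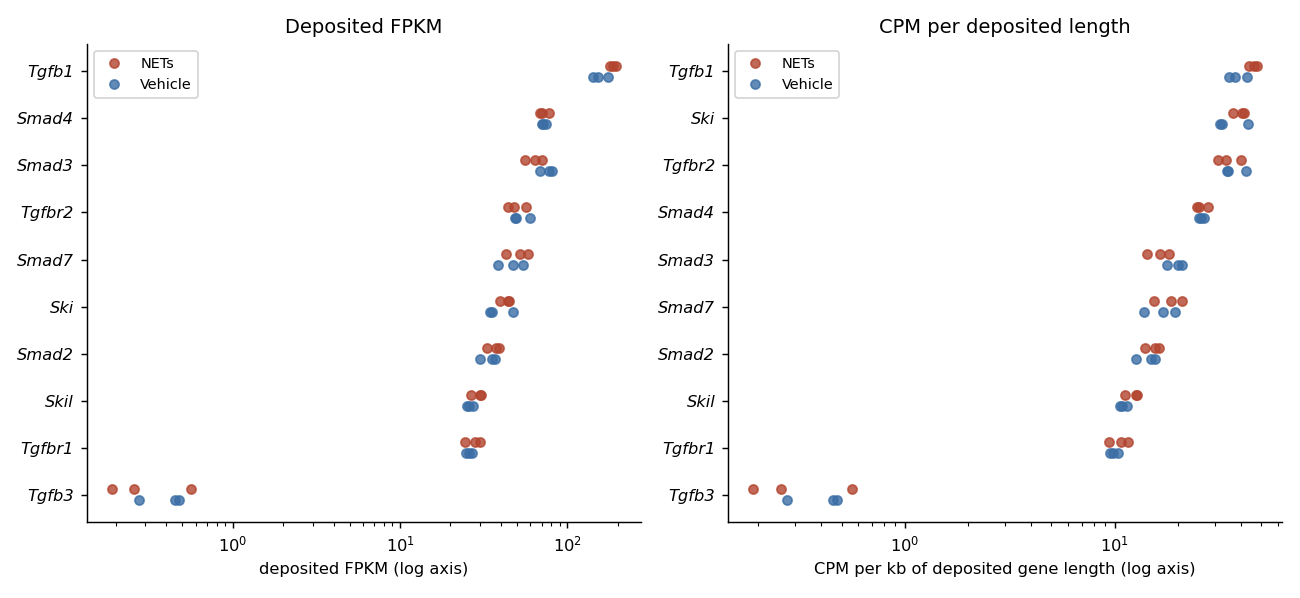
Level of each member in the 6 libraries, as deposited FPKM (left) and as CPM per kb of deposited gene length (right), on log axes; each point is a library, NETs above Vehicle within a gene. Tgfb1 is highest and Tgfb3 lowest on both scales, while Ski is sixth on the left and second on the right.

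The length behind the FPKM changed this order. For 9 of the 10 members the FPKM equalled reads divided by the mean length of the gene's annotated transcripts in GENCODE M21, within 1%, and the same held for 95.1% of 12749 genes with at least 100 reads. Tgfb1 was divided by 1236 bases, 0.245 of its deposited gene length of 5042 bases, whereas Ski was divided by 5117 of 5562 bases. Tgfb1 has 5 annotated transcripts, 1 of them protein-coding, and the shortest is 241 bases long. Divided by the deposited gene length, Tgfb1 averaged 42.1 ± 4.96, Ski 37.7 ± 4.75 and Tgfbr2 36.1 ± 4.22 CPM per kb (SD, n = 6). On this scale Tgfb1 was above Ski in 5 of 6 libraries and their ranges overlapped. Smad4 (25.9 ± 1.12 CPM per kb) and Smad3 (17.9 ± 2.41 CPM per kb) then no longer overlapped. The 4 lowest members (Smad2, Skil, Tgfbr1 and Tgfb3) kept their order on both scales. Smad2, however, was the member outside the 1% match, with its FPKM divided by 1490 bases. Its deposited length was 3549 bases. GENCODE M21 gives Smad2 a mean transcript length of 2238 bases and exons covering 8781 bases. The place of Smad2 therefore rests on the deposited lengths, and the same reads divided by the GENCODE M21 lengths would put it lower.

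Within the receptor pair, Tgfbr2 was above Tgfbr1 in every library. The FPKM ratio of Tgfbr2 to Tgfbr1 was 1.96, 1.46 and 2.03 in NETs replicates 1 to 3, against 1.96, 2.33 and 1.82 in vehicle replicates 1 to 3. Within the receptor-activated Smads, the ratio of Smad3 to Smad2 was 1.49, 1.64 and 2.12 with NETs, against 2.60, 2.30 and 1.87 with vehicle. Both ratios overlapped between the groups. The size of the Smad3 to Smad2 ratio rests on the FPKM length of Smad2, 1490 bases. The ratio of Smad7 to Smad3, an inhibitor over a transducer, was 0.931, 0.674 and 0.827 with NETs, against 0.608, 0.667 and 0.557 with vehicle. This ratio was higher in each NETs library than in each vehicle library, by a narrow margin between NETs replicate 2 and vehicle replicate 2, and it was chosen with the members' values known, so it has no test.

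With the quasi-likelihood test of edgeR, adjusted by Benjamini-Hochberg over all genes, 0 of the 10 members passed an adjusted p of 0.05, against 0 of 13900 genes tested (0%). DESeq2 also called 0 members, against 1.4% of the genes it gave an adjusted p, and limma-voom 0 members, against 0.00719% of all genes. At an unadjusted p under 0.05 there were 2 members, Tgfb1 higher and Smad3 lower, against 12.8% of all genes tested (6.72% higher and 6.06% lower). The median log2 fold change (NETs over vehicle) was 0.11 over the members, with 7 of 10 above 0, and 0.0012 over all genes tested, with 50.2% above 0. The median size of the change regardless of sign was 0.14 for the members and 0.16 for all genes tested. The 3 NETs libraries lay wholly above the vehicle libraries for 1 member, Tgfb1, and wholly below them for none, against 7.68% and 9.04% of all genes tested.

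**Figure D2:**
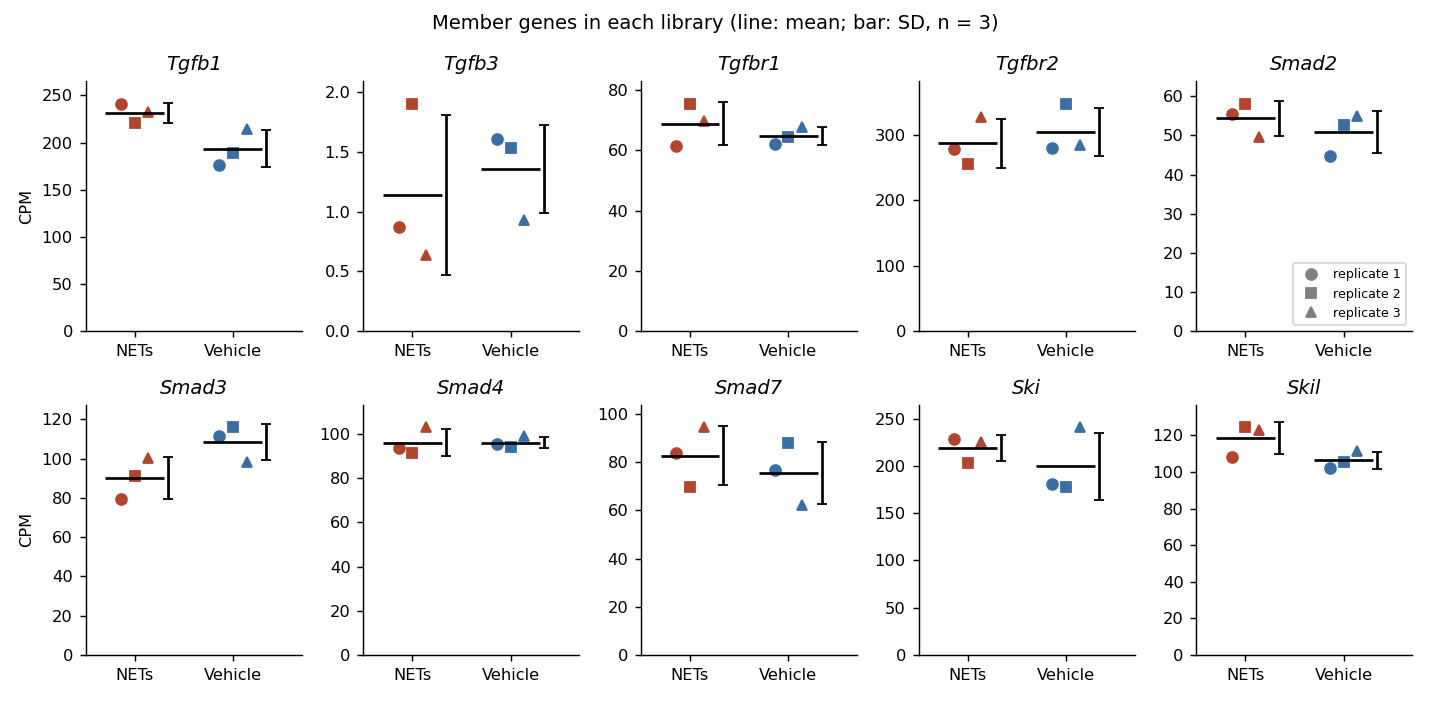
CPM of the 10 members in each library, NETs on the left and Vehicle on the right of each panel, with the mean (line) and SD (bar, n = 3) of each group; the vertical axes start at 0. Tgfb1 is the member whose groups do not overlap (221 to 241 CPM with NETs, 176 to 215 CPM with vehicle).

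Tgfb1 encodes the main TGF-beta isoform of the immune system, which activated and regulatory T cells themselves make. It had 241, 221 and 232 CPM in NETs replicates 1 to 3, against 176, 189 and 215 CPM in vehicle replicates 1 to 3. The lowest NETs library was just above vehicle replicate 3, the highest of the vehicle libraries. The means were 231 ± 10.1 CPM with NETs and 193 ± 19.5 CPM with vehicle (SD, n = 3 each). The difference was 1.21-fold (95% interval 1.06 to 1.38), a log2 fold change of 0.27 (SE 0.09) with an edgeR adjusted p of 0.258. Tgfb1 ranked 471st of 13900 genes by p (unadjusted p = 0.00876). Without vehicle replicate 3 the log2 fold change was 0.35 and the edgeR adjusted p 0.0474, and Tgfb1 was then the 1 member past the threshold, against 2.81% of all genes tested in that fit. Over the 6 fits with 1 library left out the edgeR adjusted p of Tgfb1 ran from 0.0474 to 0.812. At an unadjusted p under 0.05 the fit without vehicle replicate 3 had 3 members, Tgfb1, Ski and Smad3, against 20.4% of all genes. Without vehicle replicate 1 there were 0 members, against 7.97% of all genes, and the log2 fold change of Tgfb1 was 0.20 (unadjusted p = 0.0679 by edgeR). Tgfb1 was the 1 member without vehicle replicate 2 (7.76% of all genes) and without NETs replicate 2 (12.9%). There were 2 members, Tgfb1 among them, without NETs replicate 1 (6.05% of all genes) and without NETs replicate 3 (12.6%).

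Tgfb3, an isoform linked in mice to the helper 17 programme of T cells, was near the floor of detection. It had 15, 35 and 11 reads in NETs replicates 1 to 3 and 30, 24 and 15 reads in vehicle replicates 1 to 3, or 61 reads against 69. The groups overlapped, and NETs replicates held both the highest and the lowest value. The log2 fold change was −0.24 (SE 0.52; edgeR adjusted p = 0.883), with an interval of 0.391-fold to 1.83-fold. The third isoform, Tgfb2, had 14 reads with NETs and 17 with vehicle over the 3 libraries of each and was not tested.

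Receptor transcripts showed no difference beyond the spread between replicates. Tgfbr1, the type I receptor kinase, had 61.4, 75.5 and 69.9 CPM with NETs, against 62.1, 64.4 and 67.8 CPM with vehicle. NETs replicate 1 was the lowest of all 6 libraries and NETs replicates 2 and 3 the highest. The log2 fold change was 0.10 (SE 0.10; edgeR adjusted p = 0.700), with an interval of 0.925-fold to 1.25-fold. Tgfbr2, the ligand-binding type II receptor, had 278, 255 and 327 CPM with NETs, against 280, 347 and 285 CPM with vehicle. In each group 1 library stood above the other 2, replicate 3 with NETs and replicate 2 with vehicle. Its log2 fold change was −0.07 (SE 0.11; edgeR adjusted p = 0.820; interval 0.807-fold to 1.12-fold), and without NETs replicate 2 or vehicle replicate 2 it was 0.01 or 0.04.

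Among the Smads that carry the signal, Smad3 had the smallest p, short of the adjusted threshold. Smad3, which binds DNA directly and is known in mouse T cells for a part in Foxp3 induction, had 79.3, 91.1 and 100.5 CPM with NETs, against 111, 116 and 98.3 CPM with vehicle. NETs replicate 3 overlapped vehicle replicate 3, and the other libraries did not overlap. The means were 90.3 ± 10.6 CPM with NETs and 109 ± 9.11 CPM with vehicle (SD, n = 3 each). The difference was 0.839-fold (95% interval 0.719 to 0.978), a log2 fold change of −0.25 (SE 0.10) with an unadjusted p of 0.0280 and an edgeR adjusted p of 0.332. Without vehicle replicate 3 the log2 fold change was −0.32 (edgeR adjusted p = 0.101).

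Smad2, the partner of Smad3 that does not bind DNA in its full-length form, had 55.4, 58.1 and 49.5 CPM with NETs, against 44.8, 52.6 and 55.0 CPM with vehicle. The groups overlapped, the highest library being NETs replicate 2 and the lowest vehicle replicate 1. Its log2 fold change was 0.11 (SE 0.11; edgeR adjusted p = 0.713; interval 0.915-fold to 1.27-fold), and without vehicle replicate 1 it was 0.01. Smad4, the common partner of both, had 93.8, 91.4 and 103 CPM with NETs, against 95.5, 94.1 and 98.9 CPM with vehicle. The vehicle libraries lay inside the range of the NETs libraries. Its log2 fold change was 0.01 (SE 0.09; edgeR adjusted p = 0.975), and the interval of 0.886-fold to 1.15-fold was the narrowest among the members.

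**Figure D3:**
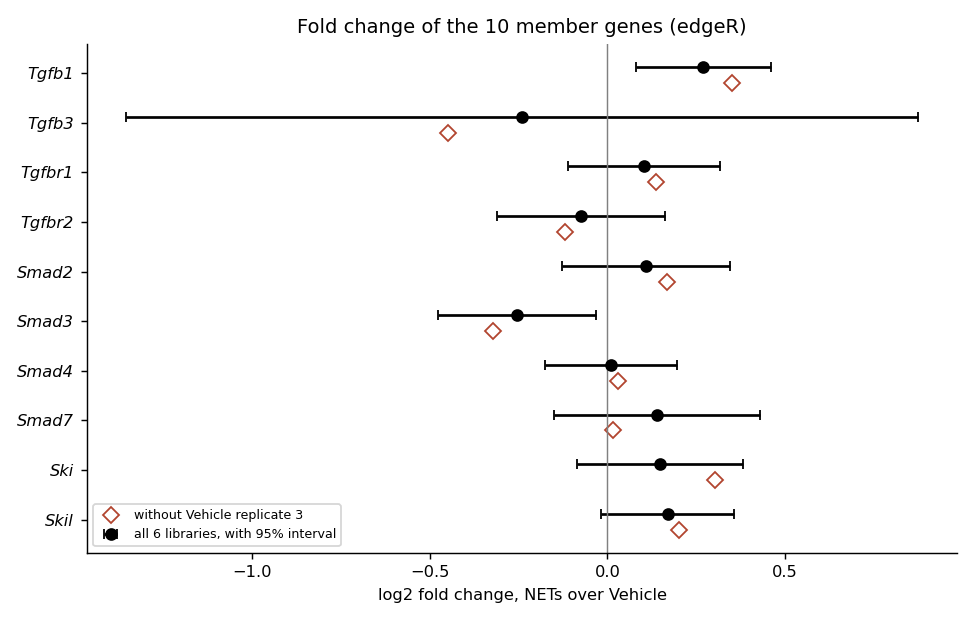
Log2 fold change (NETs over Vehicle) of each member by edgeR, with its 95% interval over all 6 libraries (filled circles) and the estimate without Vehicle replicate 3 (open diamonds). The intervals of Tgfb1 (0.08 to 0.46) and Smad3 (−0.48 to −0.03) do not reach 0, and neither gene passes the adjusted threshold in the full fit.

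The inhibitory Smad7 and the Smad corepressors Ski and Skil had log2 fold changes above 0, none past the threshold. Smad7, an inhibitory Smad that is itself induced by TGF-beta and directs ubiquitin ligases to the receptor, had 83.9, 69.8 and 94.4 CPM with NETs, against 76.9, 87.9 and 62.2 CPM with vehicle. NETs replicate 3 was the highest library and vehicle replicate 3 the lowest, with the rest intermixed. Its log2 fold change was 0.14 (SE 0.14; edgeR adjusted p = 0.697), and without vehicle replicate 3 it was 0.02. Ski, a corepressor that binds Smad complexes, had 229, 203 and 226 CPM with NETs, against 181, 177 and 241 CPM with vehicle. Vehicle replicate 3 exceeded every NETs library, while the other vehicle libraries lay below all of them. The log2 fold change of Ski was 0.15 (SE 0.11; edgeR adjusted p = 0.590) with all libraries and 0.30 (edgeR adjusted p = 0.0746) without vehicle replicate 3.

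Skil, which encodes the Ski relative SnoN and is a TGF-beta target, had 108, 124 and 123 CPM with NETs, against 102, 105 and 111 CPM with vehicle. NETs replicate 1 lay below vehicle replicate 3, and NETs replicates 2 and 3 lay above every vehicle library. Its log2 fold change was 0.17 (SE 0.09; unadjusted p = 0.0730; edgeR adjusted p = 0.437), with an interval of 0.988-fold to 1.28-fold.

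**Figure D4:**
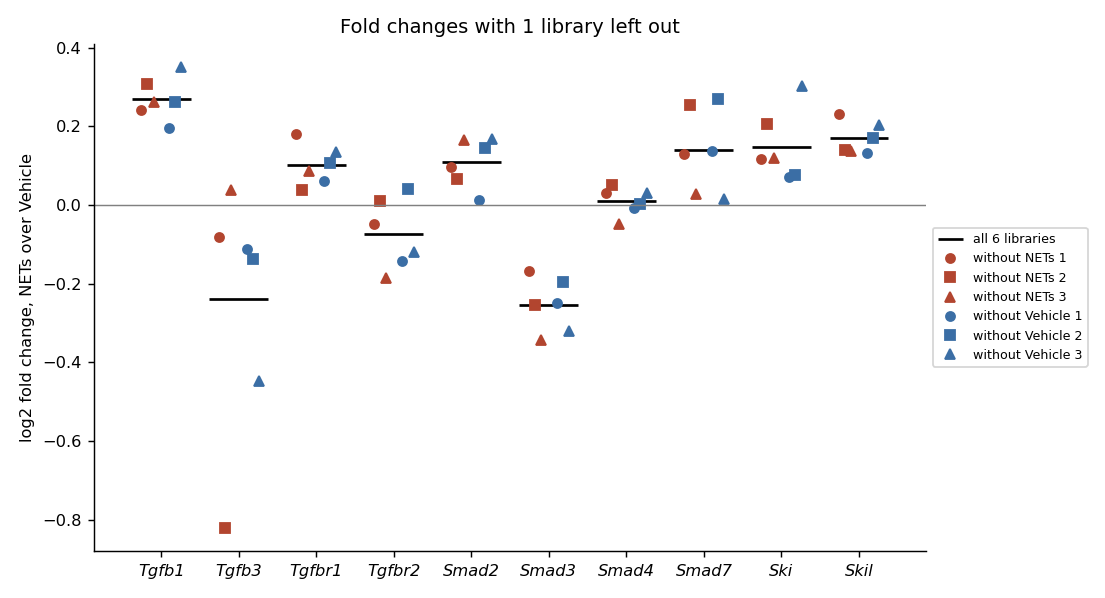
Log2 fold change (NETs over Vehicle) of each member with all 6 libraries (black line) and with 1 library left out (points; red for a NETs library, blue for a Vehicle library, shape for the replicate number). Tgfb1 stays between 0.20 and 0.35 and Smad3 between −0.34 and −0.17, while Tgfb3, Tgfbr2 and Smad4 cross 0.

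How far replicates of a group spread differed between members. Counting error alone gives a coefficient of variation of 1.41% for Tgfbr2, the member with the most reads (30305 over 6 libraries), and 21.5% for Tgfb3. The observed coefficient of variation of Tgfbr2 was 12.9% with NETs and 12.3% with vehicle, so its spread was mostly not counting error. Smad7 was also variable, at 14.9% with NETs and 17.0% with vehicle against a counting error of 2.71%. Smad4 varied by 6.35% with NETs and by 2.56% with vehicle, the lowest value of the members with vehicle, against a counting error of 2.46%. Tgfb3 varied by 58.9% with NETs and 27.3% with vehicle. Ski varied by 6.34% with NETs and 17.8% with vehicle, where replicate 3 stood apart. Tgfb1 varied by 4.37% with NETs and 10.1% with vehicle.

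Members varied together in some pairs over the 6 libraries, which share the treatment difference and the library-wide shifts, so these correlations of log2 CPM are descriptions. Pearson's r was 0.90 between Tgfbr1 and Skil, 0.83 between Tgfb1 and Ski and 0.71 between Tgfbr2 and Smad7. It was −0.83 between Tgfb3, with 130 reads in all, and Smad4, −0.79 between Tgfb3 and Ski, and −0.78 between Tgfb1 and Smad3. Among 9584 other genes averaging 5 CPM or more, the 3 most like Tgfb1 were Rnf10 (r = 0.997), Coa4 (0.995) and Rad23b (0.994). Those most like Tgfbr2 were Pdlim4 (0.998), Pstpip1 (0.993) and Zfp36l2 (0.991), and those most like Smad3 were Stx16 (0.998), Tcirg1 (0.991) and Kiz (0.991). Each is among the 3 highest of 9584 values from only 6 libraries, so such r are picked extremes and do not show shared control.

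Of 53 other genes of the pathway, 46 were tested and 0 passed the adjusted threshold by edgeR. At an unadjusted p under 0.05 there were 7 (2 higher, 5 lower), or 15.2% against 12.8% of all genes tested. DESeq2 called 1 of the 37 it gave an adjusted p, Tgif1, against 1.4% of all genes with one, and limma-voom called 0 of 46, against 0.00719%. Their median log2 fold change was −0.04, with 19 above 0 and 27 below. Without vehicle replicate 3, 4 passed, Fkbp1a, Strap and Lrrc32 higher and Tgif1 lower with NETs, against 2.81% of all genes tested in that fit.

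**Figure D5:**
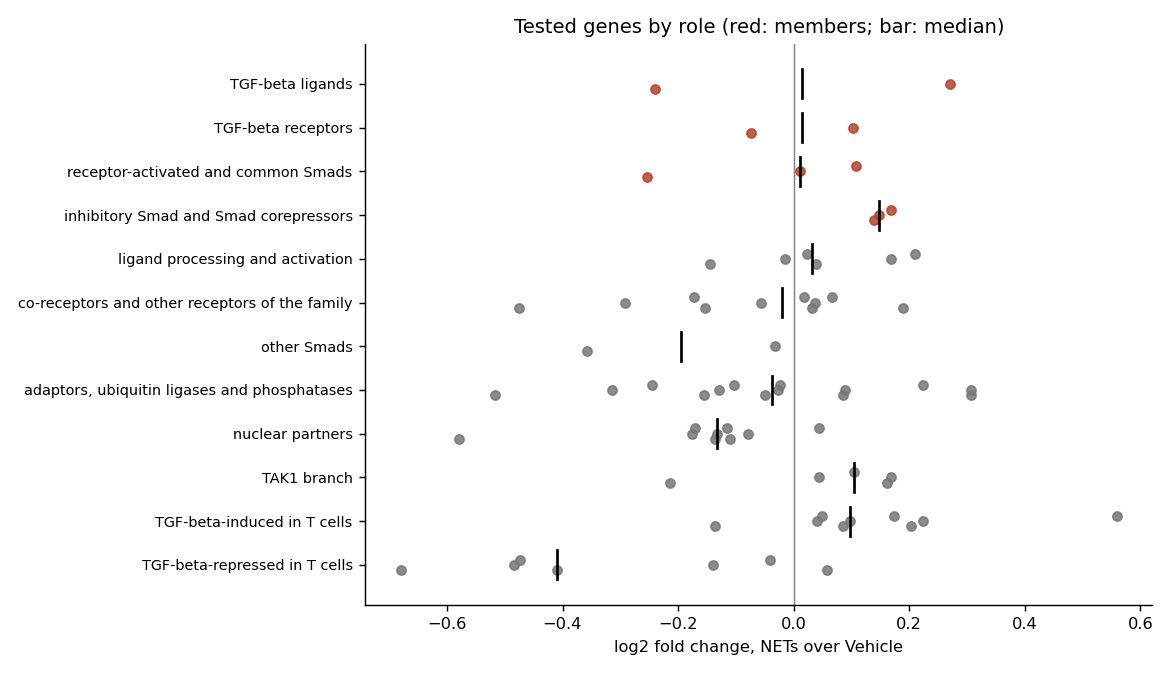
Log2 fold change (NETs over Vehicle) of every tested gene by role, members in red and other genes in grey, with the median of each role as a black bar. Nuclear partners lie below 0 for 8 of 9 genes, and genes listed as repressed by TGF-beta for 6 of 7. In either role 0 genes pass the adjusted threshold by edgeR. Pmepa1, Ldlrad4 and Runx1 are drawn both in a pathway role and among the induced genes.

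Among genes that process or activate the ligand, 6 of 10 were tested, with 4 above 0 and a median log2 fold change of 0.03. Lrrc32 encodes the surface anchor of latent TGF-beta on regulatory T cells. It averaged 133 ± 7.46 CPM with NETs and 116 ± 24.6 CPM with vehicle (SD, n = 3 each). Its log2 fold change was 0.21 (edgeR adjusted p = 0.482). Vehicle replicate 3 (144 CPM) exceeded every NETs library, while vehicle replicates 1 and 2 (106 and 97.5 CPM) lay below all of them. Nrros, a related anchor known from myeloid cells, averaged 59.7 ± 1.32 CPM with NETs and 53.6 ± 2.43 CPM with vehicle, with no overlap between groups (log2 fold change 0.17, edgeR adjusted p = 0.469). Itgav, an integrin chain that takes part in releasing the ligand, had a log2 fold change of −0.14 (edgeR adjusted p = 0.581). Its partner Itgb8 had 28 reads with NETs and 3 with vehicle, and was not tested.

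Co-receptors and other receptors of the family had 5 of 10 genes above 0 and a median log2 fold change of −0.02. The genes with the smallest p were the activin receptors Acvr2b (−0.48) and Acvr2a (−0.29) and the BMP receptor Bmpr2 (−0.17), with edgeR adjusted p of 0.538, 0.633 and 0.704. Of the other Smads, Smad5, a transducer of BMP signals, averaged 44.1 ± 2.63 CPM with NETs and 56.9 ± 4.10 CPM with vehicle (SD, n = 3 each) with no overlap, and its log2 fold change was −0.36 (SE 0.10; edgeR adjusted p = 0.223). Smad1, its close relative, had a log2 fold change of −0.03 (edgeR adjusted p = 0.953). Smad6 and Smad9 were too low to test, with 24 and 1 reads with NETs and 10 and 1 with vehicle.

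Adaptors, ubiquitin ligases and phosphatases had 5 of 14 genes above 0 and a median log2 fold change of −0.04. Fkbp1a, whose product binds the type I receptor and keeps it inactive, averaged 253 ± 20.0 CPM with NETs and 206 ± 27.0 CPM with vehicle (SD, n = 3 each), with no overlap (log2 fold change 0.31, SE 0.10; edgeR adjusted p = 0.244). Strap, a receptor-associated inhibitor, stood at 0.31 on the same scale (SE 0.11; edgeR adjusted p = 0.282). Usp11, a deubiquitinase that acts on the receptor, had a log2 fold change of −0.31 (edgeR adjusted p = 0.353). None of these 3 passed the threshold in this fit, while Fkbp1a did with no filter on low counts, against 1.3% of the genes tested without that filter.

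Nuclear partners of the Smads had 1 of 9 tested genes above 0 and a median log2 fold change of −0.13, against 0.0012 over all genes tested. Tgif1, a corepressor of Smad complexes, averaged 23.1 ± 2.66 CPM with NETs and 34.7 ± 7.02 CPM with vehicle (SD, n = 3 each), with no overlap. Its log2 fold change was −0.58 (SE 0.16; unadjusted p = 0.00213; edgeR adjusted p = 0.223). Trim33, which binds SMAD2 and SMAD3 and can ubiquitinate SMAD4, had a log2 fold change of −0.18 (edgeR adjusted p = 0.391), and the corepressor Ncor1 one of −0.13 (edgeR adjusted p = 0.483). The NETs libraries lay wholly below the vehicle libraries for 6 of these 9 genes, against 9.04% of all genes tested. At an unadjusted p under 0.05 by edgeR there was 1 of the 9 (11.1%), against 12.8% of all genes tested, and 0 passed the adjusted threshold. The list was chosen with earlier results of these data known, so these counts are descriptions. The TAK1 branch, which runs from the receptor without Smads, had 4 of 5 genes above 0, with Tab2 at −0.21 (edgeR adjusted p = 0.303), Traf6 at 0.17 (0.516) and Tab3 at 0.16 (0.617).

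Genes known to respond to TGF-beta in T cells gave 0 calls of 16 tested by edgeR, against 0% of all genes tested. DESeq2 called 0 of the 10 it gave an adjusted p, against 1.4% of all genes with one. Limma-voom called 0 of 16, against 0.00719% of all genes. At an unadjusted p under 0.05 there were 0 of 16 tested by edgeR, against 12.8% of all genes tested, and 3 of 16 without vehicle replicate 3, against 20.4%. Of 9 induced genes, 8 were above 0 with a median log2 fold change of 0.10, against 50.2% of all genes tested above 0. Both response lists were chosen with earlier results of these data known, so these counts are descriptions. Pmepa1, Ldlrad4 and Runx1 are also among the other pathway genes above. Foxp3, the regulatory T cell factor, had a log2 fold change of 0.20 (edgeR adjusted p = 0.545), the pathway inhibitor Ldlrad4 one of 0.22 (0.542) and Runx1 one of −0.14 (0.536). Of 9 genes listed as repressed, 7 were tested and 6 lay below 0, with a median of −0.41. The larger changes came from genes with few reads. Those with the most reads were S1pr1 at −0.14, Gata3 at 0.06 and Gzmb at −0.04 (edgeR adjusted p of 0.693, 0.873 and 0.948). Tbx21, at −0.48, had 26 reads with NETs and 35 with vehicle. The transcription factor Eomes averaged 5.38 ± 1.15 CPM with NETs and 7.53 ± 2.30 CPM with vehicle (SD, n = 3 each; log2 fold change −0.47, edgeR adjusted p = 0.468). The cytotoxic gene Prf1 was at −0.68 (edgeR adjusted p = 0.525) and Il2 at −0.41 (0.653), at means of 1.68 and 3.04 CPM with NETs. Ifng had 0 reads in all libraries and Gzma had 1 read with NETs and 2 with vehicle.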

How the data were processed

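The authors deposited raw counts, whole numbers of reads for each Ensembl gene, in a pair of tables with the same values. They also deposited FPKM, which from the values is reads scaled to the library's counted reads and to a transcript length. Per the labels' protocols, RNA came from RNeasy kits and libraries from a standard Illumina workflow. STAR, DESeq2 and the build mm9 appear, without versions, per the submitters' processing notes, yet 98.3% of 54409 genes shared with GENCODE M21 carried its GRCm38 coordinates. The counter, annotation release and use of strand are, in the sources used here, not given. Library totals ran from 15657622 to 18655997 counts.

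Counts were filtered with filterByExpr (13900 genes kept), scaled by TMM and tested with edgeR 4.0.16 (quasi-likelihood, robust, two-sided, treatment as the only term, Benjamini-Hochberg over all genes tested, threshold 0.05) in R 4.3.3. Intervals are 95%. The test was checked on simulated counts. Alternatives were DESeq2 1.42.0, limma 3.58.1 (voom, and log2 FPKM with a pseudocount of 1 or 0.1), no TMM, 2 other filters, a replicate block and each library left out. CPM uses library totals.

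The members and lists were chosen with earlier results of these data known. Named genes are the members, up to 3 genes with the smallest p per role (any past the threshold would be added), the 3 most alike to Tgfb1, Tgfbr2 and Smad3, genes overlapping a member, and a few others named after their values were seen. Promoter sequences are RefSeq's, on GRCm38.p6.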

Additional observations from a re-analysis of the deposited data

How the results depend on the processing

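The count of members past the threshold was 0 in every alternative except without vehicle replicate 3, where it was 1 (Tgfb1), so the range with 1 library left out was 0 to 1. Over all genes the count was 0 in the fit reported, 125 with DESeq2, 322 with no filter on low counts, 1 with limma-voom, 2 with FPKM at either pseudocount and 0 to 405 with 1 library left out, the highest without vehicle replicate 3. For the other pathway genes it was 1 with DESeq2 (Tgif1), 2 with no filter (Fkbp1a and Tgif1) and 0 to 4 with 1 library left out. Smad4 changed sign, at −0.0019 without TMM factors, −0.0036 among genes averaging 5 CPM or more and −0.0032 with FPKM at either pseudocount. With 1 library left out, Smad4 ran from −0.0489 to 0.0511, Tgfb3 from −0.821 to 0.0378 and Tgfbr2 from −0.187 to 0.0417. Tgfb3 gave no value among genes averaging 5 CPM or more. The other 7 members kept their sign in all alternatives. With 1 library left out, Ski ran from 0.07 to 0.30, Smad7 from 0.02 to 0.27, Smad2 from 0.01 to 0.17 and Tgfbr1 from 0.04 to 0.18. The causes were not tested.

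Same-numbered libraries did not deviate together (r of −0.02, −0.05 and −0.16 between NETs and vehicle replicates 1, 2 and 3). With 3 libraries per group this cannot decide whether the numbers pair the samples, and no source says. With the replicate block 0 members, 0 other pathway genes and 0 of all genes passed, with 1337 of all genes at an unadjusted p under 0.05 against 1776 without it. Tgfb3 had 130 reads in all, with a counting coefficient of variation of 21.5% against an observed 58.9% with NETs and 27.3% with vehicle.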
